A study of Mus musculus with 4 samples.

Results

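The Hox genes are 31 of the 22422 genes measured in the distal colon of mice treated with dextran sulfate sodium (DSS). Members were all genes whose mouse symbol is Hoxa, Hoxb, Hoxc or Hoxd followed by a number. They comprised 11 genes of the Hoxa cluster on chromosome 6, 9 of the Hoxb cluster on chromosome 11, 3 of the Hoxc cluster on chromosome 15 and 8 of the Hoxd cluster on chromosome 2. The annotation holds 39 such symbols, and the other 8 (Hoxb1, Hoxc8 to Hoxc13 and Hoxd1) were not analysed here. RNA came from the distal colon of 6-week-old female C57BL/6 mice after 5 days of 2% DSS, a polysaccharide that injures the colonic epithelium. One group was wild type and the other Elf4fl/fl-Villin-Cre, in which Cre under the villin promoter, active in intestinal epithelium, deletes the loxP-flanked gene of the ETS transcription factor Elf4 (below, conditional knockout). The strain label of the second group reads C57BL/8. Each group had 2 libraries of 15885028 to 16425954 reads, all mice had DSS, and nothing in the labels says whether libraries were separate animals, so p-values measure the spread between these samples. Levels are normalised reads, without gene length unless given per kb of exon, and fold changes compare conditional knockout with wild type as log2(value + 1), which understates changes of low genes.

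Hox genes encode homeodomain transcription factors that set position along the head-to-tail axis. Within a cluster their order on the chromosome follows the order of their domains in the body, and genes with the same number in different clusters are paralogs. Paralogs 1 to 8 are the anterior and central genes and 9 to 13 the posterior ones, whose highest numbers mark the hindgut. In the gut they are made both in epithelium and in the underlying mesenchyme, where they remain on in the adult. Hox proteins bind DNA with cofactors of the PBC (Pbx) and MEIS families, and Cdx1 and Cdx2, of the related ParaHox group, are regulators of posterior Hox genes in development and of intestinal epithelial identity.

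Start regions of members that the results turn on are shown as examples. No pair of them shares a cluster and differs in direction. RefSeq starts (GRCm38.p6, the build called mm10) were matched for 20 of the 31 members. The 250 bases before the start are printed 5′ to 3′ on the gene's strand, with CpG dinucleotides in capitals, for 3 members that fell (Hoxa13 at chr6:52260881-52261130, minus strand; Hoxd13 at chr2:74667975-74668224, plus strand; Hoxa5 at chr6:52204588-52204837, minus strand) and 1 that rose (Hoxb4 at chr11:96318017-96318266, plus strand).
Hoxa13: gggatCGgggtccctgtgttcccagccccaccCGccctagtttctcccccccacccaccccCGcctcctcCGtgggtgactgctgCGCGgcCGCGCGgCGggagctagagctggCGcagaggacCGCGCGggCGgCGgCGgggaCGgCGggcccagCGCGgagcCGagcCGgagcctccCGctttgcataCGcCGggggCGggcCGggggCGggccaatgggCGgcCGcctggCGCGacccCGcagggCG
Hoxd13: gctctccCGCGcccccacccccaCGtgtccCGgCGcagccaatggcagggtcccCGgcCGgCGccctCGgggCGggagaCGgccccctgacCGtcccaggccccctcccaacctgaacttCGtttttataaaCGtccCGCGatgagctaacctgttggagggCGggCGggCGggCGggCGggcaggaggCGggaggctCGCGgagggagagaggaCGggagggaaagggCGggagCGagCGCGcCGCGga
Hoxa5: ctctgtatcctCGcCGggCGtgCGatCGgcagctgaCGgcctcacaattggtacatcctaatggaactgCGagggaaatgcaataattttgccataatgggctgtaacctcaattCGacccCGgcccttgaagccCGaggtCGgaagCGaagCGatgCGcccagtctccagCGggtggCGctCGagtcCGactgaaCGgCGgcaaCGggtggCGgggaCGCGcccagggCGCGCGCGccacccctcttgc
Hoxb4: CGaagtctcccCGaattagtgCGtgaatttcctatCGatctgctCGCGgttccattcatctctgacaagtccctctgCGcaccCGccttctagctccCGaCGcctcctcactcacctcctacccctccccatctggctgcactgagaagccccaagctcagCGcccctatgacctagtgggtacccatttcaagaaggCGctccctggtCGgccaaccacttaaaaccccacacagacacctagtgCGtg
The Hoxa13, Hoxd13 and Hoxa5 windows held 35, 31 and 28 CpG, the most of the 22 Hox windows, and the Hoxb4 window 14. Windows of other genes that fell held 24 (Hoxa6), 7 (Hoxa7), 3 (Hoxa9) and 20 and 7 (both Hoxa10 starts). The median was 12.5 over the 22 Hox windows and 6 over all 32851 RefSeq windows of this length. The ETS core CCGGAA, searched on both strands, lay in 1 of the 22 Hox windows (a Hoxa10 start) and in 12% of all windows. The letters TTTATNG, bound by CDX and posterior Hox proteins, lay in 2 of the 22, those of Hoxb8 and Hoxd4, and in 9.81% of all windows. TATAAA lay in 4 Hox windows, Hoxd13 among them, and in 12.4% of all windows. These are descriptions of the letters and not of binding.

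Before the members, the libraries themselves. Elf4 stood at 1588 and 1938 normalised reads in wild type, against 897 and 758 in conditional knockout colon (log2 fold change -1.09 ± 0.16 (SE), limma adjusted p = 0.0139), and a count over the whole gene does not show whether the deleted part was read. For the marker counts below, 8.6% of all genes tested fell and 6.86% rose. Colon epithelium markers were present in every library but lower in conditional knockout colon, 10 of 10 past the test with a median of -1.35. Their sum was 252079 and 312647 in wild type and 83675 and 100462 in conditional knockout colon. Fibroblast markers rose in 3 of 8 cases (sums 38654 to 47980 against 76812 to 81470) and leukocyte markers in 7 of 10 (sums 6805 to 9106 against 18052 to 29054), with none falling. Smooth muscle markers fell in 1 of 8 cases, with sums of 107105 to 138260 against 65621 to 96772. Endothelium markers rose in 2 of 8 cases, enteric glia markers rose in 2 and fell in 1 of 6, and 0 of 8 enteric neuron markers passed limma (3 at an unadjusted p under 0.05, 1 by edgeR). Erythroid markers rose in 4 of 6 cases, with sums of 244 and 697 against 2426 and 2817. Of 7 small intestine markers tested 1 fell, Defa24 and Apoc3 being at 0 reads in a group, and the sums were 313 to 334 against 180 to 457. Stratified squamous markers, which mark the anal lining, summed to 202 and 4986 in wild type replicates 1 and 2 and to 117 and 796 in conditional knockout replicates 1 and 2, so wild type replicate 2 stood apart. Of these 8 markers 0 passed limma (0 at an unadjusted p under 0.05), and of the 6 that edgeR tested 0 passed. The part of these markers in the Hox results was not tested. In whole tissue, fewer cells of a type and less RNA per cell cannot be told apart.

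In the distal colon of conditional knockout mice, Hox RNA was lower in sum, and the single genes went both ways by cluster and position. Of the 31 members, 9 fell and 4 rose (limma, adjusted p under 0.05 over all genes), or 41.9% called, against 15.5% of the 22050 genes tested. The 9 that fell were 6 Hoxa genes, Hoxb9, Hoxb13 and Hoxd13, or 29.0% of members against 8.6% of all genes. The 4 that rose were Hoxb3, Hoxb4, Hoxb5 and Hoxc6, or 12.9% against 6.86%. Hoxc6 had 0 reads in wild type and met the filter, a mean of at least 1, only through the conditional knockout libraries. Its call therefore adds no support to that share. The median log2 fold change was -0.43 over the members and 0.11 over all genes tested. With edgeR on the whole reads, 13 of the 27 members it tested were called, or 48.1% against 23.4% of all genes, and 12 of the 13 limma calls were among them. It called 3 as higher and 10 as lower, beside 9.88% and 13.5% of all genes, and DESeq2 called 2 and 11 of 26, beside 9.51% and 15.4%. After scaling to library totals limma called 5 as higher and 7 as lower of 31, beside 18.7% and 5.42%. In these alternatives the share of members called as higher was near that of all genes. The share called as lower was above it. The groups did not overlap in 22 of the 31 members, or 71.0%, against 62.2% of all genes, so by that measure the members stood near the background. Hoxa3, with 161 and 158 against 55.4 and 96.2 normalised reads, was called as lower by edgeR (adjusted p = 0.0435) but missed the limma threshold (adjusted p = 0.0568).

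**Figure D1:**
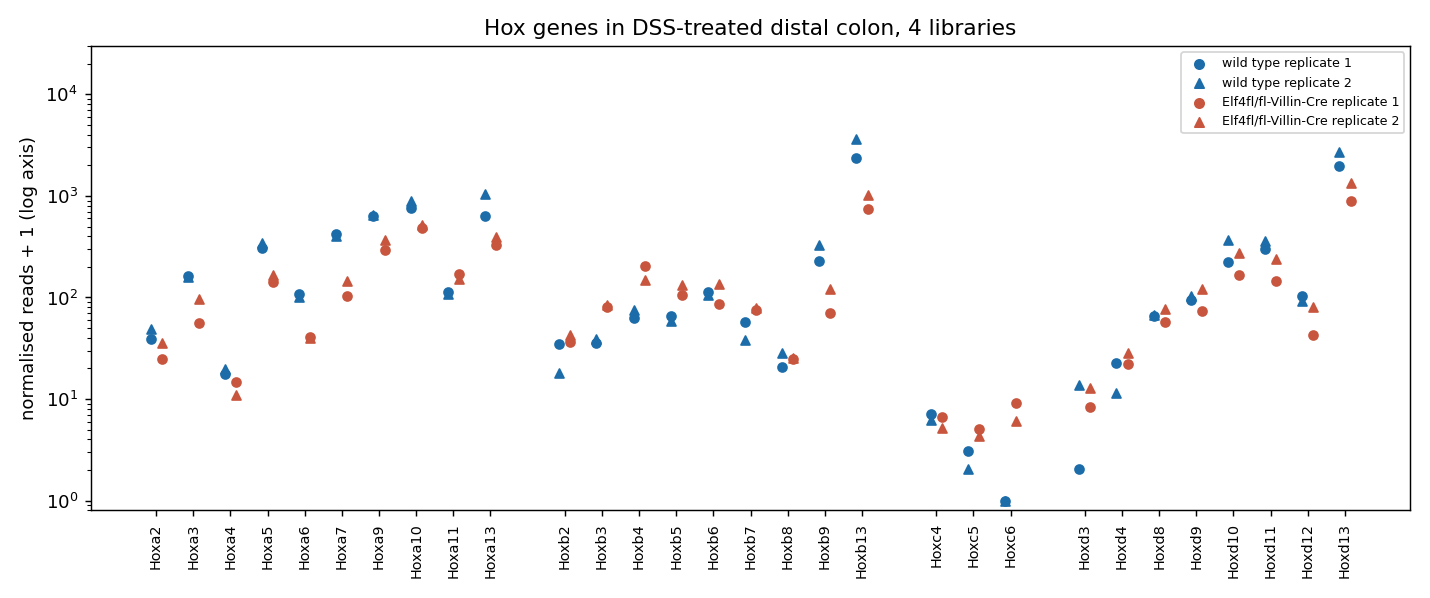
Normalised reads + 1 (log axis) of Hox genes in each of the 4 libraries, ordered by cluster and paralog number. Circles are replicate 1 and triangles replicate 2, blue wild type and red Elf4fl/fl-Villin-Cre. Hoxb13 and Hoxd13 lie at 741 to 3614 normalised reads and the 3 Hoxc genes at 0 to 8.14, without correction for gene length.

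The summed level of all members was 8942 and 11766 normalised reads in wild type, against 4500 and 5900 in conditional knockout colon. Both wild-type libraries stood above both others, 1.99-fold on the means. This fold includes the scaling of the deposited values. In them 1 read was worth 1.03 and 1.05 in wild type and 0.814 and 0.836 in conditional knockout colon. As a share of all reads of each library, Hox reads were 1.60-fold higher in wild type on the means, also without overlap. An exact permutation test (two-sided) of 2 libraries against 2 cannot go below p = 0.33, the value found here. Within this sum the Hoxa cluster held 35.8% and 32.0% of the reads in wild type and 36.8% and 32.7% in the other group, and the Hoxd cluster 30.9% and 31.4% against 31.3% and 36.7%, both with overlapping groups. The Hoxb cluster held 33.2% and 36.5% against 31.5% and 30.3%, without overlap, and the 3 Hoxc genes 0.0537% to 0.398%.

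Levels per kb of exon were highest at the posterior end. In wild type, Hoxb13 stood at 1069 and 1638 normalised reads per kb, Hoxd13 at 787 and 1082, Hoxa13 at 259 and 425 and Hoxa10 at 232 and 273. The ranges of Hoxb13 and Hoxd13 overlapped between libraries, as did those of Hoxa13 and Hoxa10, but Hoxb13 was above Hoxd13 within each wild-type library. In conditional knockout colon the order within each library was the opposite, with Hoxb13 at 336 and 467 per kb and Hoxd13 at 362 and 540. Within a cluster, the wild-type level per kb went up with paralog number, with Spearman rho of 0.75 over the 11 Hoxa genes, 0.80 over the 9 Hoxb genes and 0.83 over the 8 Hoxd genes. These points are genes of the same libraries and neighbours on the chromosome, so rho is given without a test.

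The posterior genes of paralog group 13 fell in all 3 clusters in which they were measured. Hoxb13 (ENSMUSG00000049604.3, chromosome 11, 96194316 to 96197447 in mm10), expressed in distal colon epithelium, had 2358 and 3614 normalised reads in wild type, against 741 and 1031 in conditional knockout colon. The groups did not overlap, and the fold was 3.37 lower on the means (2986 ± 888 against 886 ± 205, SD, n = 2 each; log2 fold change -1.74 ± 0.25 (SE), limma adjusted p = 0.0136). Hoxa13 (ENSMUSG00000038203.18, chromosome 6, 52257694 to 52260880), required for hindgut and limb development, had 640 and 1052 against 328 and 393, and fell by 1.19 ± 0.25 on the log2 scale (limma adjusted p = 0.0303). Hoxd13 (ENSMUSG00000001819.4, chromosome 2, 74668310 to 74671599), which acts with Hoxa13 in the hindgut and its sphincters, had 1955 and 2687 against 899 and 1342, and fell by 1.06 ± 0.24 (limma adjusted p = 0.0371). Together the 3 genes made up 55.4% and 62.5% of Hox reads in wild type and 43.7% and 46.9% in conditional knockout colon. In both genotypes replicate 2 was the higher library for each of the 3 and for 9 of the 11 posterior members, and it was also the library with more squamous marker RNA. In the edgeR fit without wild type replicate 2, the log2 fold changes were -1.44 for Hoxb13, -0.85 for Hoxa13 and -0.83 for Hoxd13. There Hoxb13 kept its call (adjusted p = 0.0353), while Hoxa13 (adjusted p = 0.0547) and Hoxd13 (adjusted p = 0.104) lost theirs. Hoxd13 lost it as well without conditional knockout replicate 1 (adjusted p = 0.0559), after scaling to library totals (limma adjusted p = 0.0581) and with quantile normalisation (limma adjusted p = 0.0854).

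Epithelial and fibroblast RNA differed between the groups, so the genes of group 13 were also set against each. Per 1000 normalised reads of the 10 summed epithelium markers, Hoxb13 stood at 9.35 and 11.6 in wild type and at 8.86 and 10.3 in conditional knockout colon, so the groups overlapped. Hoxa13 stood at 2.54 and 3.36 against 3.92 and 3.91, and Hoxd13 at 7.75 and 8.59 against 10.7 and 13.4, with both conditional knockout libraries above both wild-type ones. Per 1000 reads of the 8 summed fibroblast markers, Hoxb13 stood at 49.1 and 93.5 against 9.65 and 12.7, Hoxa13 at 13.3 and 27.2 against 4.27 and 4.82, and Hoxd13 at 40.7 and 69.5 against 11.7 and 16.5. In each of these 3 ratios both wild-type libraries stood above both others. That order was fixed, because the genes fell and the fibroblast marker sum rose, each without overlap. The ratios are descriptions and rest on the markers chosen.

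In the Hoxa cluster genes fell at central and posterior positions alike. Of its 11 genes, 6 fell and 0 rose, beside 8.6% lower and 6.86% higher over all genes. The median log2 fold change was -0.95, and 10 of 11 fold changes were negative. Hoxa7 (ENSMUSG00000038236.8, chromosome 6, 52214491 to 52221854), a central gene of the cluster, had 420 and 399 normalised reads in wild type, against 102 and 145 in conditional knockout colon. The groups lay far apart, and Hoxa7 fell by 1.74 ± 0.22 on the log2 scale (limma adjusted p = 0.0102), as far as Hoxb13. Its neighbour Hoxa6 had 108 and 100 against 39.9 and 39.3, and fell by 1.37 (limma adjusted p = 0.0193). Hoxa5, which is made in gut mesenchyme during development, had 309 and 339 against 142 and 166, and fell by 1.07 (limma adjusted p = 0.0165). The groups did not overlap in any of these 3, and the conditional knockout replicates lay farther apart for Hoxa7, by 0.51 on the log2 scale, than for Hoxa5 or Hoxa6. Hoxa9 had 629 and 646 against 293 and 369 and fell by 0.95 (limma adjusted p = 0.0182). Hoxa10, the second highest Hoxa gene per kb, had 758 and 892 against 485 and 518 and fell by 0.71 (limma adjusted p = 0.0270). Per 1000 summed epithelium marker reads, Hoxa7 stood at 1.67 and 1.28 in wild type and at 1.22 and 1.45 in the other group, with overlap. Hoxa10 stood there at 3.01 and 2.85 against 5.80 and 5.15, without overlap. Per 1000 summed fibroblast marker reads, Hoxa7 stood at 8.75 and 10.3 against 1.33 and 1.79, and Hoxa10 at 15.8 and 23.1 against 6.32 and 6.35. These last 2 ratios did not overlap, which follows from genes that fell and a marker sum that rose. Of the anterior genes, Hoxa3, with the values given above, was called by edgeR and DESeq2 but not by limma, while Hoxa2 (38.1 and 47.4 against 23.6 and 34.3) and Hoxa4 (16.5 and 19.0 in wild type, log2 fold change -0.54) were called by none of the 3. Without wild type replicate 2, edgeR lost the calls of Hoxa5, Hoxa6, Hoxa9 and Hoxa10 (adjusted p = 0.0565, 0.0588, 0.0521 and 0.0731) and kept that of Hoxa7 (adjusted p = 0.0349). Hoxa10 was not called without conditional knockout replicate 1 (edgeR adjusted p = 0.0632) or after scaling to library totals (limma adjusted p = 0.0892).

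Hoxa11 was the only Hoxa gene with a positive fold change. It had 112 and 106 normalised reads in wild type, against 170 and 150 in conditional knockout colon, without overlap, and was not called (log2 fold change 0.55, limma adjusted p = 0.111), though it was after scaling to library totals (0.86, limma adjusted p = 0.0307). Its antisense partner Hoxa11os, whose exons cover 800 bases of Hoxa11, had 726 and 818 normalised reads against 329 and 472, and fell by 0.97 (limma adjusted p = 0.0293). Hoxa11os was not called after scaling to library totals (limma adjusted p = 0.0514), nor, when wild type replicate 2 was left out, by edgeR (adjusted p = 0.0848). The strandedness of the counting is not given in the sources used here. Reads over these 800 of the 2287 exon bases of Hoxa11 therefore cannot be assigned to either gene. In all, 15 of the 31 members share exon bases with another annotated gene, and 4 of these were called, namely Hoxa7, Hoxa9, Hoxb3 and Hoxb5. For Hoxa7 the overlap is 586 bases with the antisense Hoxaas3, which had 62.8 and 76.9 against 23.6 and 38.5 normalised reads. Hoxb3 shares 2250 of its 4251 exon bases with the antisense Hoxb3os, so reads over those bases cannot be assigned either. For Hoxa9 and Hoxb5 the overlap is 85 and 100 bases.

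The Hoxb cluster divided by position. Its posterior genes Hoxb13 and Hoxb9 both fell, and among paralogs 1 to 8 3 of 7 rose and 0 fell (median log2 fold change 0.73). The shares over all genes were 8.6% lower and 6.86% higher. Hoxb9 had 227 and 328 normalised reads in wild type, against 70.0 and 120 in conditional knockout colon, and fell by 1.57 ± 0.32 (limma adjusted p = 0.0268). Hoxb4 (ENSMUSG00000038692.8, chromosome 11, 96318267 to 96321638), an anterior gene also known for its action in blood stem cells, had 61.7 and 73.8 against 202 and 146. The groups did not overlap, and Hoxb4 rose by 1.34 ± 0.25 (limma adjusted p = 0.0220). Hoxb3, with the antisense overlap given above, had 35.0 and 37.9 against 79.8 and 82.8 and rose by 1.14 (limma adjusted p = 0.0354). Hoxb5, which is active in gut mesenchyme and in enteric neural crest cells, had 64.8 and 58.0 against 106 and 130 and rose by 0.93 (limma adjusted p = 0.0494). Between these and Hoxb9, Hoxb6 had 112 and 104 against 84.7 and 135 and Hoxb8 19.5 to 27.4, with overlapping groups. Hoxb7 had 56.6 and 36.9 against 74.1 and 78.6 and Hoxb2, the anterior end of the measured cluster, 34.0 and 16.9 against 35.8 and 41.8, neither past the test. Per 1000 summed fibroblast marker reads, Hoxb4 stood at 1.29 and 1.91 in wild type and at 2.63 and 1.80 in the other group, with overlap. Hoxb9 stood there at 4.74 and 8.48 against 0.912 and 1.47, without overlap. Per 1000 epithelium marker reads, Hoxb4 stood at 0.245 and 0.236 against 2.41 and 1.46, without overlap, and Hoxb9 at 0.902 and 1.05 against 0.837 and 1.19, with overlap. Where the groups did not overlap, gene and marker sum had gone in opposite directions, which fixes that order. The erythroid and leukocyte markers given above were higher in the same libraries as Hoxb4, and their part in the result was not tested.

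The calls of the 3 genes that rose in the Hoxb cluster were mostly lost when a library was left out, while their fold changes stayed positive. In the edgeR fits without 1 library the log2 fold change was 1.05 to 1.19 for Hoxb3, 1.06 to 1.54 for Hoxb4 and 0.75 to 1.04 for Hoxb5. Those fits called Hoxb3 and Hoxb5 in 0 of the 4 fits (highest adjusted p = 0.103 and 0.161) and Hoxb4 only without conditional knockout replicate 2 (highest adjusted p = 0.0741 in the others). Quantile normalisation lost all 3 (limma adjusted p = 0.0735, 0.0541 and 0.0919 for Hoxb3, Hoxb4 and Hoxb5), and library totals kept them. Hoxb5 was also not called by DESeq2 (adjusted p = 0.0627), and limma did not call it without the filter (adjusted p = 0.0532) or with a pseudocount of 5 (adjusted p = 0.0541). Hoxb9 was not called without wild type replicate 2 (edgeR adjusted p = 0.0919) and was in the other 3 fits. As a ratio that needs no scaling between libraries, Hoxb13 per kb stood 44.4 and 57.0 times above Hoxb4 in wild type and 4.27 and 8.2 times above it in conditional knockout colon. Both ratios in wild type were above both others. As Hoxb13 fell and Hoxb4 rose without overlap, that order was fixed in advance, and the ratio is a description only.

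**Figure D2:**
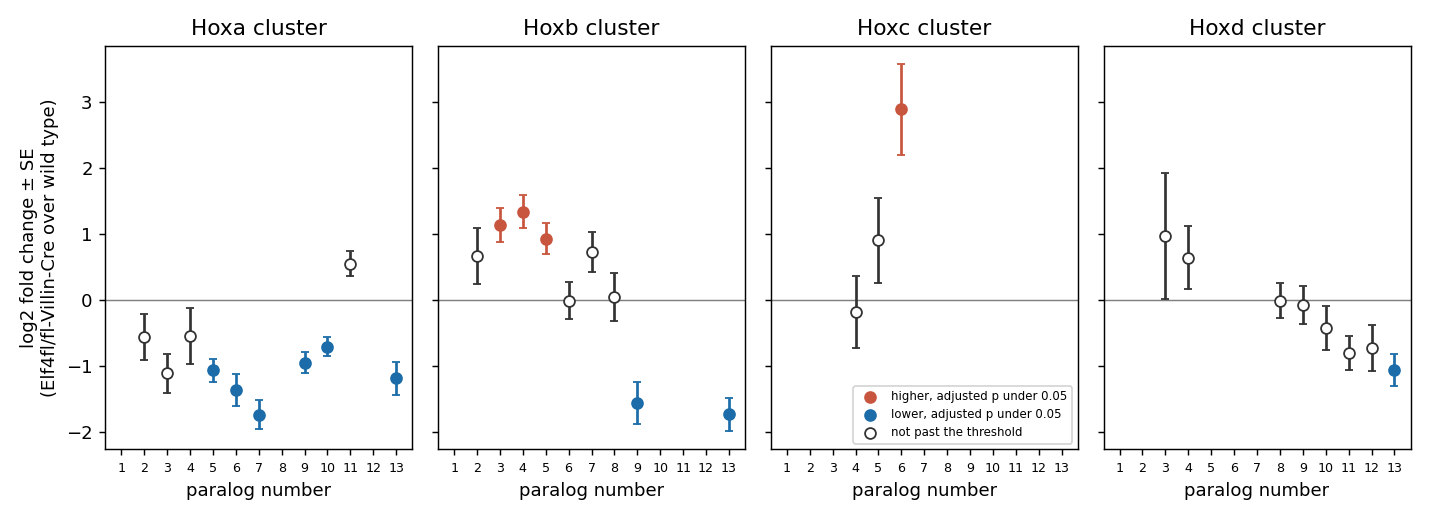
Log2 fold change ± SE (limma, Elf4fl/fl-Villin-Cre over wild type, 2 libraries each) of Hox genes against their paralog number, by cluster. Filled points passed an adjusted p of 0.05. Hoxa genes lie below 0 except Hoxa11 at 0.55, Hoxb genes lie above 0 at paralogs 3 to 5 and below it at 9 and 13, and Hoxd genes run from 0.97 at Hoxd3 to -1.06 at Hoxd13.

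The Hoxd cluster showed a graded order of fold changes with 1 of its 8 members past the test, beside 15.5% of all genes. From anterior to posterior the log2 fold changes were 0.97 for Hoxd3, 0.64 for Hoxd4, -0.01 for Hoxd8, -0.08 for Hoxd9, -0.43 for Hoxd10, -0.81 for Hoxd11, -0.73 for Hoxd12 and -1.06 for Hoxd13. The Spearman rho with paralog number was -0.98 over these 8 genes, -0.75 over the 9 Hoxb genes and -0.11 over the 11 Hoxa genes, given as a description of genes that share the same 4 libraries. Apart from Hoxd13 none passed limma. Hoxd11 had 297 and 359 normalised reads in wild type, against 146 and 238 in conditional knockout colon (limma adjusted p = 0.0940), without overlap. Hoxd12 had 103 and 90.6 against 41.5 and 80.3 (limma adjusted p = 0.216), with the conditional knockout replicates 0.93 apart on the log2 scale, the widest gap among the 21 members with a mean of at least 50. Hoxd10 had 223 and 366 against 165 and 273, and Hoxd9 93.6 and 103 against 72.5 and 120, with overlapping groups in both. At the anterior end Hoxd3 rested on few reads, 1.03 and 12.6 normalised reads in wild type, against 7.33 and 11.7 in conditional knockout colon, and its exons overlap those of Hoxd4 on the same strand. Hoxd4 had 21.6 and 10.5 against 21.2 and 27.6, and Hoxd8 64.8 and 66.4 against 56.2 and 75.3, both with overlapping groups. Without wild type replicate 1 the log2 fold change of Hoxd3 turned to -0.41.

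The Hoxc genes were near the limit of detection. Hoxc4, Hoxc5 and Hoxc6 never exceeded 8.14 normalised reads. Hoxc6 had 0 reads in both wild-type libraries and 10 and 6 reads in the conditional knockout libraries. A limit of 3 reads over the wild-type group was taken for the count of 0. The observed conditional knockout mean was 4.21 times that limit. The limit covers counting error of the wild-type reads only, and not that of the 16 conditional knockout reads. Hoxc6 passed limma (adjusted p = 0.0406) and not after quantile normalisation (limma adjusted p = 0.0592), and edgeR with all libraries did not test it. Where edgeR tested it, without wild type replicate 1 or 2, it was not called (adjusted p = 0.141 and 0.157). Hoxc5 had 2.06 and 1.05 against 4.07 and 3.34 normalised reads, and Hoxc4 6.17 and 5.27 against 5.70 and 4.18, and neither was called.

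Across clusters, the posterior paralogs made up less of the Hox RNA in conditional knockout colon. Paralogs 9 to 13 held 82.7% and 87.1% of Hox reads in wild type and 75.8% and 78.5% in conditional knockout colon, a difference of -7.72 percentage points (exact permutation p = 0.33, two-sided, the smallest that 2 against 2 allows). In the Hoxb cluster the share was 87.1% and 91.7% against 57.2% and 64.3%. In the Hoxd cluster it was 96.8% and 97.6% against 94.0% and 94.7%. In the Hoxa cluster it ran the other way, at 66.7% and 71.6% against 77.1% and 74.1%. None of these groups overlapped. Of the 11 posterior members 6 fell and 0 rose (median log2 fold change -0.81). Of the 20 others 3 fell and 4 rose, Hoxc6 among the latter, with a median of 0.02. Beside these, 8.6% of all genes tested fell and 6.86% rose, with a median of 0.11.

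**Figure D3:**
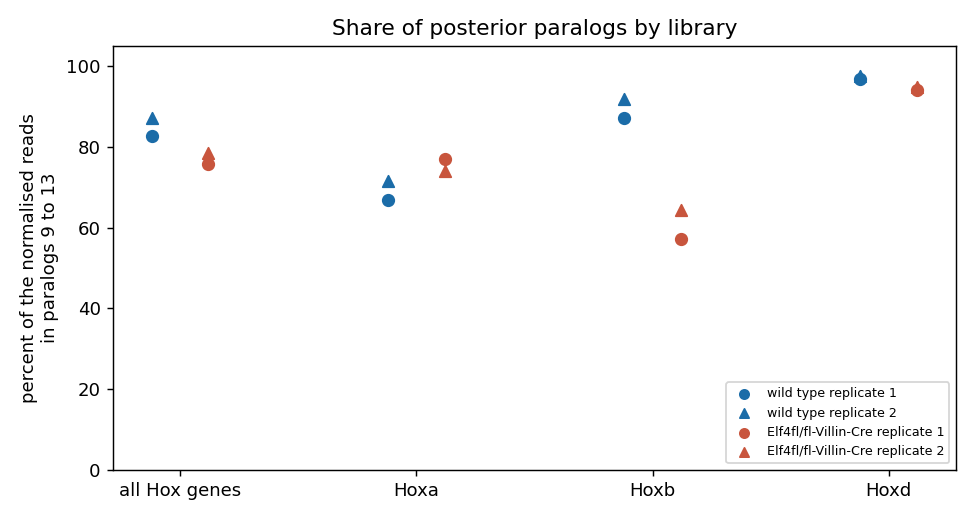
Percent of normalised reads that paralogs 9 to 13 held in each library, over all Hox genes and within the Hoxa, Hoxb and Hoxd clusters. Circles are replicate 1 and triangles replicate 2. The Hoxb share is 87.1% and 91.7% in wild type against 57.2% and 64.3% with Elf4fl/fl-Villin-Cre, and the Hoxa share is higher with Elf4fl/fl-Villin-Cre, at 77.1% and 74.1% against 66.7% and 71.6%.

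Within 300 kb beyond the posterior ends of the Hoxa and Hoxb clusters, 14 genes were tested. Of these, 5 fell, 0 rose and 9 were not called, beside 8.6% lower and 6.86% higher over all genes. This set mixes coding and noncoding genes and was not planned. On the same side of the Hoxd cluster 3 genes were tested, 0 fell and 0 rose. On that side of the measured Hoxc genes, Atp5g2 and Calcoco1 were not called. Evx1, a homeobox gene 52.6 kb beyond Hoxa13, had 36.0 and 33.7 normalised reads in wild type, against 1.63 and 5.85 in conditional knockout colon, and fell by 3.08 (limma adjusted p = 0.0231). The long noncoding RNA Hottip, made from the posterior tip of the Hoxa cluster 1.90 kb from Hoxa13 and known to keep posterior Hoxa genes active, had 201 and 281 against 32.6 and 49.3 and fell by 2.54 ± 0.30 (limma adjusted p = 0.00972). Beyond Hoxb13, Ttll6, a tubulin glutamylase gene, had 242 and 352 against 47.2 and 129 and fell by 1.89 (limma adjusted p = 0.0472). The noncoding Gm53, between Hoxb13 and Hoxb9, had 433 and 666 against 61.1 and 171 and fell by 2.38 (limma adjusted p = 0.0271). Beyond Hoxd13, the homeobox gene Evx2 had 109 and 144 against 88.0 and 116 with overlapping groups, and was not called (limma adjusted p = 0.447). Ttll6 was not called after scaling to library totals (limma adjusted p = 0.0504) or quantile normalisation (limma adjusted p = 0.0641). With 1 library left out, edgeR kept Hottip in 4 of 4 fits, lost Gm53 without wild type replicate 2 (adjusted p = 0.0920) and called Evx1 and Ttll6 in 2 fits each (highest adjusted p = 0.0667 and 0.157).

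Over the 25 protein-coding genes other than Hox within 300 kb of a cluster or inside one, 24 were tested, 5 fell and 2 rose, against 8.6% and 6.86% of all genes. Farther from the clusters these were Atp5g1, a subunit of mitochondrial ATP synthase, at -1.18, and B4galnt2, a glycosyltransferase of gut epithelium, at -2.19, both on the posterior side of Hoxb (limma adjusted p = 0.0117 and 0.0237). Skap2, an adaptor protein of leukocytes on the anterior side of Hoxa, fell by 0.70 (limma adjusted p = 0.0289). Near Hoxc, Gpr84, a receptor of myeloid cells, rose by 2.82 and Zfp385a by 0.72 (limma adjusted p = 0.0097 and 0.0357). Skap2 was not called after scaling to library totals or quantile normalisation (limma adjusted p = 0.0884 and 0.0777), nor was Zfp385a with the latter (0.0537). With 1 library left out, edgeR called B4galnt2, Skap2 and Zfp385a in 3, 2 and 0 of 4 fits (highest adjusted p = 0.0794, 0.0902 and 0.132). The locus of the microRNA gene Mir196a-1 lies between Hoxb13 and Hoxb9, and its mature product is known to target Hox transcripts such as that of Hoxb8. The mature sequence from RefSeq (chr11:96265187-96265208, plus strand) is printed with its seed, bases 2 to 8, in capitals.
miR-196a-5p: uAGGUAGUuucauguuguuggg
Reads over the hairpin gene came to 53.5 and 70.6 normalised reads in wild type, against 8.14 and 25.1 in conditional knockout colon, without overlap (log2 fold change -2.02, limma adjusted p = 0.0587, edgeR adjusted p = 0.0421). Hoxb8 itself did not differ beyond the spread, and reads over the hairpin do not measure the mature RNA.

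**Figure D4:**
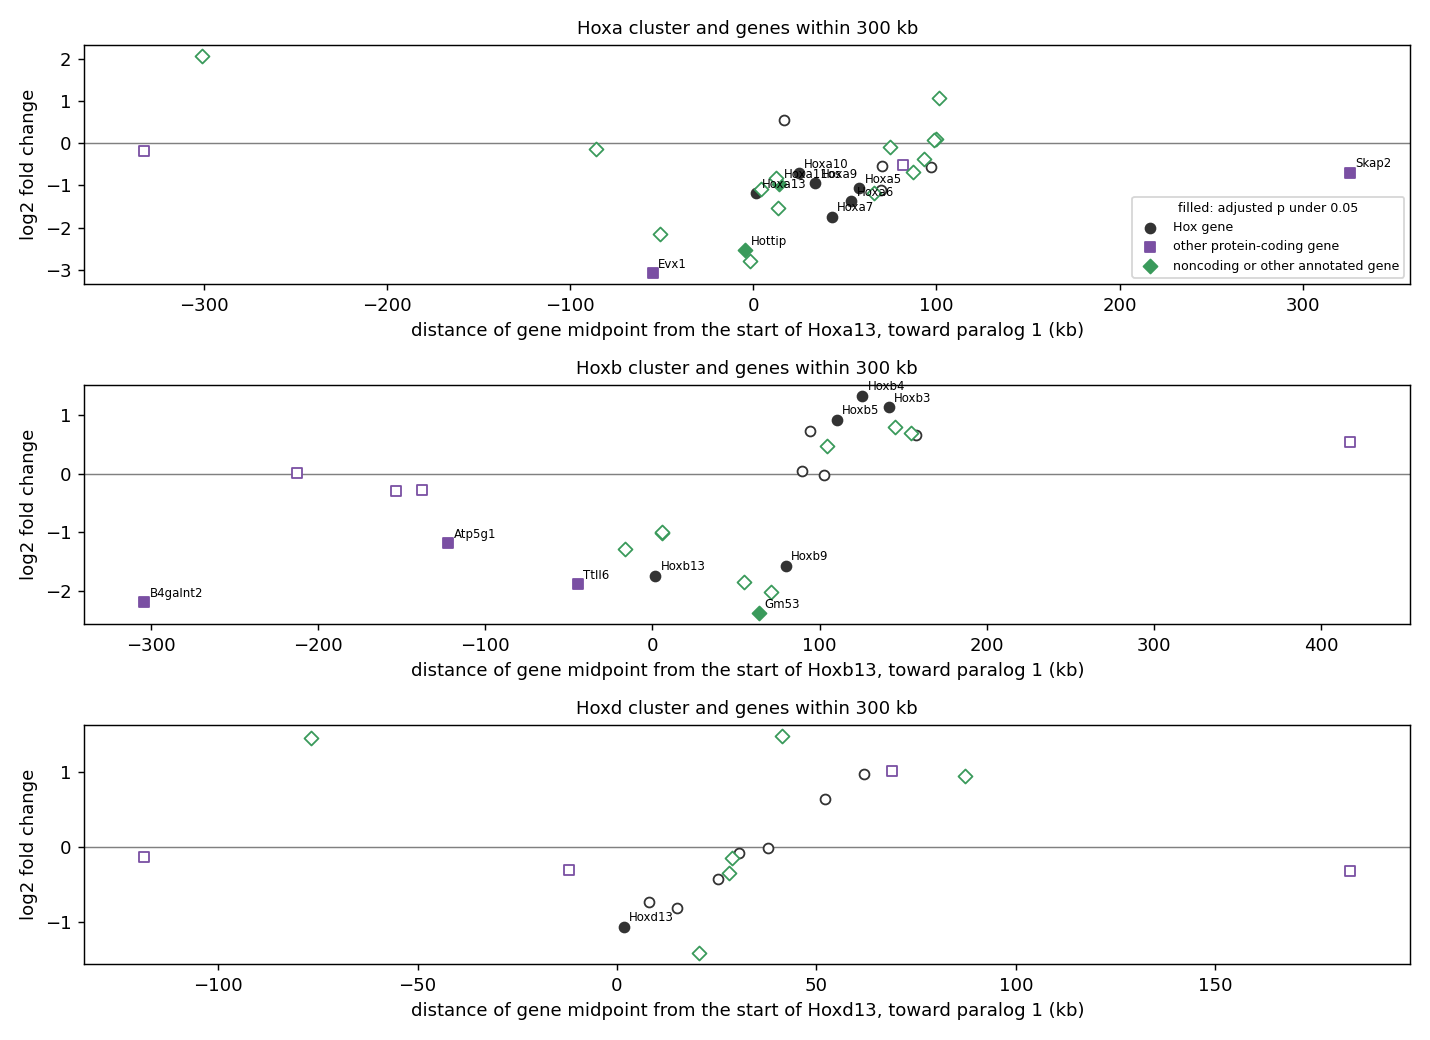
Log2 fold change of Hox genes (circles), other protein-coding genes (squares) and noncoding or other annotated genes (diamonds) against the distance in kb of the gene midpoint from the start of paralog 13, running toward paralog 1, for the Hoxa, Hoxb and Hoxd clusters and 300 kb on either side. Filled symbols passed an adjusted p of 0.05. Evx1 and Hottip beside Hoxa13 stand at -3.08 and -2.54, and Ttll6, Hoxb13, Gm53 and Hoxb9 at -1.89, -1.74, -2.38 and -1.57.

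Of the noncoding RNAs named for the clusters, 10 of 18 listed were measured. Of these 2 fell (Hottip and Hoxa11os) and 0 rose, beside 8.6% and 6.86% of all genes, and the median was 0.05 on the log2 scale. Those of the anterior Hoxb genes, Hoxb3os and Hoxb5os, had 15.4 and 16.9 against 24.4 and 29.3 and 75.1 and 84.3 against 111 and 111 normalised reads, neither called (limma adjusted p = 0.249 and 0.187).

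Among genes that act with or on Hox genes, 2 of 3 ParaHox genes fell and 4 of 17 retinoic acid genes rose. Over all genes tested, 8.6% fell and 6.86% rose. Cdx1 had 2741 and 2842 normalised reads in wild type, against 638 and 963 in conditional knockout colon and fell by 1.83 (limma adjusted p = 0.00961). Cdx2 had 616 and 339 against 88.8 and 154 and fell by 1.96 (limma adjusted p = 0.0225). With 1 library left out, edgeR called both in all 4 fits. Per 1000 summed epithelium marker reads, Cdx1 stood at 10.9 and 9.09 against 7.62 and 9.59, with overlap. Per 1000 summed fibroblast marker reads it stood at 57.1 and 73.5 against 8.30 and 11.8, without overlap. No retinoic acid gene fell, and the median over the 17 was 0.87. Retinoic acid is an inducer of anterior Hox genes in the embryo, and Aldh1a2, which makes it, had 119 and 116 against 289 and 308 normalised reads and rose by 1.34 (limma adjusted p = 0.0105). Rdh10, the enzyme of the preceding step, rose by 0.87 (limma adjusted p = 0.0136). The part of ParaHox and retinoic acid genes in the Hox results was not tested.

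Of the 35 cofactor and chromatin regulator genes of 4 lists, 4 rose and 0 fell, or 11.4% higher against 6.86% of all genes and 0 lower against 8.6%. Of 4 PBC genes 0 passed limma, 0 passed edgeR and 1 had an unadjusted limma p under 0.05, with a median of 0.32. Of 5 MEIS and PREP genes 1 rose, Meis2, with 549 and 513 against 856 and 798 (log2 fold change 0.64, limma adjusted p = 0.0281). Of 16 Polycomb genes, which keep Hox genes silent, 2 rose and 0 fell, Bmi1 by 0.65 and Cbx7 by 0.69 (limma adjusted p = 0.0350 and 0.0464). Of 10 Trithorax group genes and histone H3 demethylases, which counter Polycomb, 1 rose, Kdm6b, by 0.65 (limma adjusted p = 0.0494). With 1 library left out, edgeR called Meis2, Cbx7 and Kdm6b in 1 of 4 fits each and Bmi1 in 0 (highest adjusted p = 0.118, 0.187, 0.137 and 0.120), and Cbx7 was not called with quantile normalisation (limma adjusted p = 0.0617). Of 16 transcription factor genes of gut mesenchyme 5 rose and 0 fell, beside 6.86% and 8.6% of all genes, with a median of 0.54. Foxf1, a Hedgehog target in gut mesenchyme, had 871 and 730 against 1785 and 1459 and rose by 1.02, Foxl1, a marker of subepithelial telocytes, rose by 1.75 and Tbx3 by 1.37 (limma adjusted p = 0.0162, 0.0181 and 0.0133). Foxf1 and Foxl1 lost the edgeR call in 1 of 4 fits each (adjusted p = 0.0620 and 0.0525). In the same libraries the summed fibroblast markers were 38654 to 47980 in wild type and 76812 to 81470 in conditional knockout colon, and the part of cell composition was not tested.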

How the data were processed

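RNA of the distal colon was measured by sequencing in 4 libraries, 2 per genotype, with groups taken from the genotype labels. The authors deposited a normalised signal per gene and library. In each library, 100% of values were whole multiples of what 1 read is worth (tolerance 0.01), so whole reads were recovered. Build mm10 is from the submitters' processing notes. Aligner, counter, strandedness and scaling tool: not given in the sources used here. Gene symbols, positions and exon lengths came from GENCODE mouse release 21, which matched 22376 of 22422 identifiers.

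The test was limma (3.58.1, in R 4.3.3), with eBayes and its trend option, on log2(value + 1) in all 4 libraries, genes with a mean of at least 1 (22050) and Benjamini-Hochberg adjustment. It had 2 residual degrees of freedom. edgeR (4.0.16, quasi-likelihood, TMM) and DESeq2 (1.42.0) on the whole reads were alternatives. The fits were also run on simulated data. Changes planted there were larger than those of most Hox genes and lay in well-measured genes, so the simulation does not bear on these calls. All 31 members passed the filter, Hoxc6 only through the conditional knockout libraries. Members and lists were chosen with earlier results of these data known. Named genes were the members called, the 3 highest per kb and the ends of each cluster, the 3 widest replicate gaps, up to 3 called genes by smallest p of each of 8 companion lists (or the most abundant where none was called) and up to 3 called neighbours a cluster. The other members are given as values, and Gm53, Evx2, Mir196a-1, Hoxaas3, Hoxb3os and Hoxb5os were chosen after their values were seen. Cell composition was read from 10 marker lists. Some named genes are not reported here.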

Additional observations from a re-analysis of the deposited data

How the results depend on the processing

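With 2 libraries per group, limma called 0 genes in each fit without 1 library (among Hox genes, 3 to 6 higher and 8 to 12 lower at an unadjusted p under 0.05), so edgeR fits without each library, chosen after seeing the data, were added. In those, Hox genes higher ranged from 0 to 1 and Hox genes lower from 2 to 12, against 4 and 9 in limma with all libraries, and the lowest value of 2 came without wild type replicate 2. All genes higher ranged from 476 to 1563 and lower from 809 to 2191, the lowest without wild type replicate 2. Over the limma and edgeR fits without 1 library, each count thus ranged from 0 to 1, 0 to 12, 0 to 1563 and 0 to 2191. All 13 called members kept their sign in the 4 limma fits without 1 library. Elf4 stayed between -1.23 and -0.94 there but lost its call, and between -1.27 and -0.96 in edgeR, where it kept it.

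DESeq2 called 2 Hox genes higher and quantile normalisation 0 (4 at an unadjusted p under 0.05). Scaling to library totals moved the median log2 fold change of all genes from 0.11 to 0.41 and the calls from 1512 higher and 1897 lower to 4114 and 1194; of Hox genes 5 were then higher and 7 lower. The median of paralogs 1 to 8 went from 0.02 to 0.32 under library totals, to -0.22 with quantile normalisation and to 0.26 without Elf4fl/fl-Villin-Cre replicate 1, so its direction is not settled (-0.059 to 0.26 over the fits without 1 library). That of paralogs 9 to 13 stayed negative, at -1.16 to -0.49 over all alternatives. Among single members, uncalled throughout, Hoxb6 turned from -0.01 to 0.30 under library totals, to 0.32 (limma) or 0.28 (edgeR) without Elf4fl/fl-Villin-Cre replicate 1 and to 0.04 or 0.03 without wild type replicate 1 (range -0.39 to 0.32 without 1 library), Hoxc4 from -0.19 to 0.080 under library totals and Hoxd3 from 0.97 to -0.41 or -0.45 without wild type replicate 1 (range -0.45 to 3.05). The difference in the share of paralogs 9 to 13 ranged from -9.89 to -5.54 percentage points without 1 library, and was -7.77 per kb and -6.41 without Hoxb13. The cause of these shifts was not tested.

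Replicate numbers are shared between the groups, but nothing says that they mark a shared animal, litter or day, and same-numbered libraries deviated together weakly (correlation 0.104 over 22050 genes). With the replicate block limma called 4 Hox genes higher and 11 lower (Hoxa3 and Hoxd11 added), and 2066 and 2445 of all genes. At this depth the 3 Hoxc genes rest on at most 10 reads a library.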
